A study of Mus musculus with 29 samples.

Results

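The 10 genes described here belong to the cycling of calcium in heart muscle cells, most of them at the sarcoplasmic reticulum. They are Atp2a2, Pln, Sln, Ryr2, Casq2, Casq1, Trdn, Hrc, Jph2 and Slc8a1, taken by symbol from the deposited gene counts, and all 10 were found among the 23420 genes listed. Their levels were followed over 29 libraries of poly(A) RNA from mouse hearts on the C57BL/6J background, 4 genotypes under 2 conditions. After transverse aortic constriction (TAC), an operation that narrows the aorta and loads the left ventricle with pressure, hearts were taken at 4 weeks from mice with combined PKCδ and PKCε ablation (n = 4), germline PKCε knockout (n = 4), postnatal cardiac PKCδ ablation (n = 3) and wild type (n = 4). Unstressed hearts came from the same genotypes, with n = 4 combined, n = 3 PKCε, n = 3 PKCδ and n = 4 wild type, and all mice are labelled 12 weeks of age. Prkcd and Prkce encode these 2 isoforms of protein kinase C. PKCε was absent from the germline, hence from every cell and from before birth, while the PKCδ ablation was cardiac and postnatal, and the labels do not name the Cre line. No group received a sham operation by its labels. The protocol names frozen ventricular apexes and the tissue label names the whole heart.

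In each heartbeat calcium enters the muscle cell, opens the ryanodine receptor Ryr2 and releases more calcium from the sarcoplasmic reticulum, a store that the pump SERCA2 (Atp2a2) then refills. Phospholamban (Pln) and sarcolipin (Sln) are small membrane proteins that hold the pump back, calsequestrins (Casq2, Casq1) and the histidine-rich calcium-binding protein (Hrc) bind calcium inside the store, triadin (Trdn) ties calsequestrin to the release channel, junctophilin (Jph2) holds the store against the surface membrane, and the sodium-calcium exchanger (Slc8a1) extrudes calcium from the cell. A fall of SERCA2 with prolonged pressure load is a textbook feature of the failing heart.

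Each library held 10523709 to 17314739 reads counted in genes. Levels are counts per 1000000 counts in genes (CPM), relative to library sizes scaled by the trimmed mean of M values (TMM), and a called gene has a Benjamini-Hochberg adjusted p below 0.05 in edgeR's quasi-likelihood test over 13765 genes. All 10 genes passed the filter on low counts, Sln through the groups in which it was high. Prkce, the targeted gene of the PKCε knockout, stood at 9.71, 31.5, 8.21 and 10.97 CPM in the 4 libraries labelled combined ablation after TAC, at 10.8, 7.25, 10.6 and 9.17 CPM in PKCε-knockout hearts after TAC, and at 40.4, 24.0, 33.3 and 42.9 CPM in wild-type hearts after TAC. The library labelled combined ablation, TAC, replicate 2 thus goes against its label, and wild-type TAC replicate 2 had the lowest Prkce of its group. The skeletal myosin gene Myh2 stood at 10.2 CPM in wild-type TAC replicate 2, against 0.0671, 0.259 and 0.279 CPM in the others of its group. In combined TAC replicate 2 it stood at 0.152 CPM, against 7.66, 6.27 and 6.51 CPM in the others. In PKCε-knockout hearts after TAC it stood at 2.99 to 18.1 CPM. Results that rest on these 2 libraries are also given without them. Prkcd was not called lower in the libraries labelled PKCδ ablation (log2 fold change -0.29 ± 0.13 after TAC and 0.21 ± 0.13 unstressed, adjusted p = 0.853 and 0.4 by edgeR), so whole-gene counts do not check that label. The 6 libraries labelled female were all from TAC hearts (3 combined, 2 PKCδ and 1 wild type). In 23 of the 29 libraries, however, sex-linked transcripts went against the label, by their presence or their absence. Xist and Y-linked transcripts were found together in 12 libraries, and the reason was not tested. Heart muscle markers (7 of 7 measured) summed to 87324 to 106432 CPM after TAC and 89867 to 107334 CPM unstressed.

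The stretches of 250 bases before the start of 5 of the genes are shown because 3 of them (Ryr2, Pln and Hrc) were lower after TAC in wild-type hearts and the other 2 (Casq1 and Slc8a1) differed between genotypes. They are from RefSeq for GRCm38.p6 (7 of the 10 genes matched the promoter table, and Atp2a2, Sln and Trdn had no entry), read 5′ to 3′ on the gene's own strand. Capitals mark the motifs that are spelled out after the sequences.
Ryr2, chr13:12106946-12107195, minus strand: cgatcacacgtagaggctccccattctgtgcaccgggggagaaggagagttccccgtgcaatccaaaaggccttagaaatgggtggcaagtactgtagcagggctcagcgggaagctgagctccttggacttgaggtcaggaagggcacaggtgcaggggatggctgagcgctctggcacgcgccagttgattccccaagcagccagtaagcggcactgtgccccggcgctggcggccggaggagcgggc
Pln, chr10:53337436-53337685, plus strand: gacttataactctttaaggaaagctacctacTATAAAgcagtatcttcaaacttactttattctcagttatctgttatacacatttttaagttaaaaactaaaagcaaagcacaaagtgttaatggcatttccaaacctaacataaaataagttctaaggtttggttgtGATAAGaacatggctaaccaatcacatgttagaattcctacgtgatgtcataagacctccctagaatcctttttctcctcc
Hrc, chr7:45335019-45335268, plus strand: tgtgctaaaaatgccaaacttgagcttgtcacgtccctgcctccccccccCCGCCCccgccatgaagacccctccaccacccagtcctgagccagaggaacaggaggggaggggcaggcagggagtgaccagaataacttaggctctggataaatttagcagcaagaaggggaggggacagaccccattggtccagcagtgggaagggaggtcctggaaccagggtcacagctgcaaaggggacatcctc
Casq1, chr1:172219896-172220145, minus strand: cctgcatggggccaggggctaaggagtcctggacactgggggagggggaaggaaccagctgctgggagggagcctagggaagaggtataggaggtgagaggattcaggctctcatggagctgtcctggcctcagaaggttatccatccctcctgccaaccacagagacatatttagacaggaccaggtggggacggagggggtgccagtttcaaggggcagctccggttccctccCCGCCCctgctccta
Slc8a1, chr17:81738388-81738637, minus strand: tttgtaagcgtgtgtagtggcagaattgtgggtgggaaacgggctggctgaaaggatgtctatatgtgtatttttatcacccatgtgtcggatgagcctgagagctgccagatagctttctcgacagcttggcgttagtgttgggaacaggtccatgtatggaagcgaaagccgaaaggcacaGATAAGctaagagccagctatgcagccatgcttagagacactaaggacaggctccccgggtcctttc

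Motifs were searched on both strands of the same 250 bases. The TATA box core TATAAA stood at -219 from the start of Pln and in 12.4% of 32851 promoters of the table. The GATA site GATAAG stood in Pln at -81 and in Slc8a1 at -67, and in 6.55% of promoters. The GC box GGGCGG stood, as its reverse complement, in Hrc at -200 and in Casq1 at -15, and in 32.7% of promoters. CANNTG, an E-box core that was not capitalised, was in all 5 and in 66.2% of promoters, and CATTCC, an MCAT core, was in none of the 5 and in 12.6% of promoters. The motifs do not set apart the genes that were lower after TAC in wild-type hearts from the other 2.

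The pump gene Atp2a2 and the release channel gene Ryr2 were lower after TAC in each of the 4 genotypes. Hrc and Pln were called lower in 3, Trdn and Slc8a1 in 2, and Casq1 in combined hearts alone. Jph2 was called higher in PKCδ-ablated and combined hearts and Casq2 in combined hearts. Of the 10 genes, 6 were called after TAC in combined hearts (2 higher, 4 lower), beside 43.8% of all genes tested, 22% higher and 21.8% lower. In PKCε-knockout hearts 6 were called, all lower, beside 28.9% of all genes, 14.5% higher and 14.3% lower. In PKCδ-ablated hearts 5 were called (1 higher, 4 lower), beside 26.9% of all genes, 12.9% higher and 14% lower, and in wild-type hearts 6 (1 higher, 5 lower), beside 35.7%, 17.8% higher and 17.9% lower. The 1 higher gene in wild-type hearts was Sln, which the filter kept through its high groups, so that call supports nothing. The median log2 fold change of the 10 was -0.24, -0.35, -0.46 and -0.27 in the 4 genotypes in that order, and the median of all genes tested was within 0.0212 of 0 in each. Every TAC library lay below every unstressed one, with no overlap, for 3 of the 10 genes in combined, 4 in PKCε, 8 in PKCδ and 6 in wild-type hearts, beside 17.1%, 17.5%, 25.4% and 17.6% of all genes.

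Atp2a2 was lower after TAC in all 4 genotypes, with no overlap between TAC and unstressed hearts in any of them. In combined-ablation hearts Atp2a2 stood at 6994, 9191, 6595 and 7076 CPM after TAC, against 9915, 11086, 11022 and 11237 CPM unstressed. In PKCε-knockout hearts Atp2a2 stood at 7397, 9479.8, 8805 and 10433 CPM after TAC, against 13705, 13056 and 13491 CPM unstressed. The groups were apart although combined TAC replicate 2, the library that goes against its label, was the highest of its group. In PKCδ-ablated hearts Atp2a2 stood at 9233, 9000.2 and 9503 CPM after TAC, against 11857, 12562 and 13713 CPM unstressed. In wild-type hearts Atp2a2 stood at 7657, 7527, 7632 and 9114 CPM after TAC, against 11484, 12699, 12433 and 11648 CPM unstressed. The log2 fold change of TAC over unstressed was -0.54 ± 0.09 (SE) in combined, -0.57 ± 0.10 in PKCε, -0.46 ± 0.11 in PKCδ and -0.60 ± 0.09 in wild-type hearts (adjusted p = 2.93e-05, 8.91e-05, 0.00193 and 1.39e-05 by edgeR). The call held in each genotype with any single library left out, and without combined TAC replicate 2 the change in combined hearts was -0.65. In bulk RNA, fewer heart muscle cells and less RNA per cell cannot be told apart. Fibroblast markers (6 of 6 measured) summed to 1012 to 2388 CPM after TAC and 569 to 799.6 CPM unstressed, and the ribosomal precursor Rn45s took 4.51% to 8.59% of counts after TAC and 9.90% to 14.1% unstressed. Their part in the result was not tested.

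**Figure D1:**
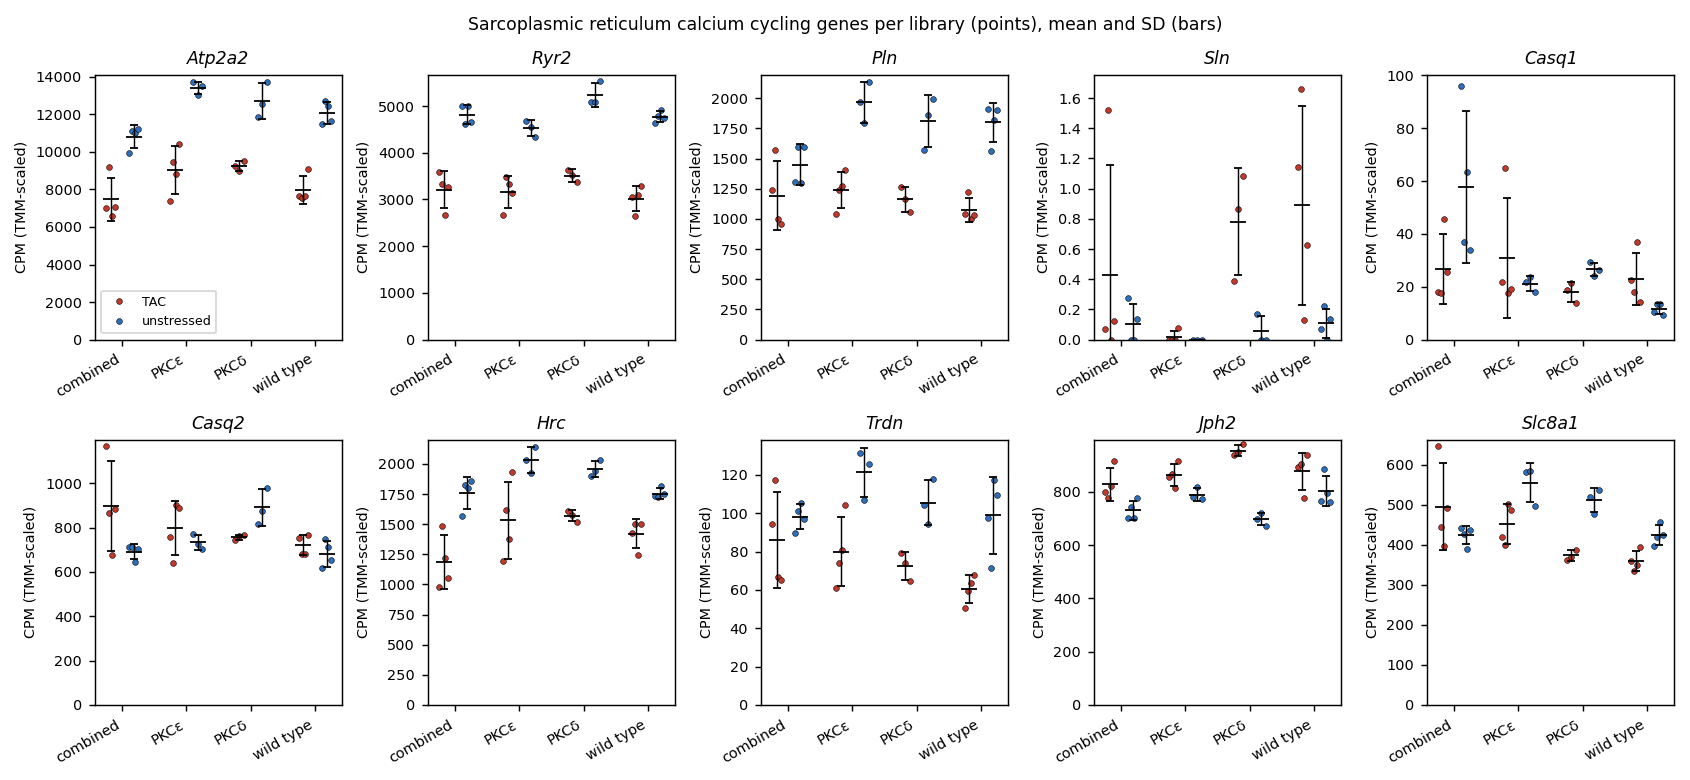
CPM (TMM-scaled) of the 10 genes in each of 29 libraries, TAC hearts in red left of unstressed hearts in blue, for combined ablation, PKCε knockout, PKCδ ablation and wild type. Points are libraries, bars are the mean and SD. Atp2a2 and Ryr2 lie lower after TAC in each genotype with no overlap, while Casq1 stands highest in unstressed combined-ablation hearts, at 34.1 to 95.9 CPM.

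Pln, the phospholamban gene, was lower after TAC in PKCε-knockout, PKCδ-ablated and wild-type hearts, and in combined hearts the difference did not pass the test. In combined-ablation hearts Pln stood at 1238, 1574, 1002 and 958 CPM after TAC, against 1308, 1599.5, 1297 and 1595 CPM unstressed. In PKCε-knockout hearts Pln stood at 1039.6, 1239, 1271 and 1409 CPM after TAC, against 1967, 1795 and 2134 CPM unstressed. The combined groups overlapped and the PKCε groups did not. In PKCδ-ablated hearts Pln stood at 1261, 1167 and 1058 CPM after TAC, against 1574, 1858 and 1997 CPM unstressed. In wild-type hearts Pln stood at 1037, 1219, 997 and 1032 CPM after TAC, against 1911, 1566, 1823 and 1900.1 CPM unstressed. Neither of these pairs overlapped. The log2 fold changes were -0.28 ± 0.12 in combined hearts (adjusted p = 0.0658 by edgeR), -0.66 ± 0.13 in PKCε (0.000466), -0.64 ± 0.14 in PKCδ (0.00151) and -0.75 ± 0.12 in wild type (4.06e-05). Without combined TAC replicate 2, whose 1574 CPM was the highest of its group, the combined change was -0.44 and was called (adjusted p = 0.00197). Among libraries labelled male, where the TAC groups of PKCδ-ablated and combined hearts have 1 library each, assumed to vary like the other groups, the PKCδ change was -0.51 (adjusted p = 0.0516) and the combined change -0.53 (0.0245). Of the exonic bases of Pln, 64.7% are shared with genes on the opposite strand (Cep85l and Gm47644), so without strand its reads cannot be told apart from theirs and its level is uncertain.

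The number of Pln counts per 100 Atp2a2 counts, which needs no library size, was 15.9 ± 1.90 after TAC and 13.4 ± 1.21 unstressed in combined hearts (SD, n = 4 each), and 13.8 ± 0.603 (n = 4) and 14.6 ± 1.06 (n = 3) in PKCε-knockout hearts. In PKCδ-ablated hearts it was 12.6 ± 1.31 after TAC and 14.2 ± 0.818 unstressed (n = 3 each), and in wild-type hearts 13.5 ± 2.02 and 15.0 ± 1.97 (n = 4 each). In exact permutation tests (two-sided) the differences of the mean log2 ratio were 0.24, -0.09, -0.18 and -0.15, with p = 0.0857, 0.257, 0.2 and 0.343, where the smallest p the groups allow is 0.0286, 0.0286, 0.1 and 0.0286. Adjusted over the 4 genotypes each p was 0.343. The smallest possible is 0.1 in PKCδ-ablated hearts, which cannot pass, and 0.0381 in the others. That 0.0381 is reached only if all these others reach their smallest p together. No genotype could pass by itself, so the adjusted values cannot decide for a single genotype. Permuted within genotype over all 29 libraries the mean difference was -0.04 (p = 0.492, permutation test).

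Sln, the sarcolipin gene and in the mouse mainly an atrial transcript, was counted 54 times in 4 wild-type TAC libraries and 6 times in 4 unstressed ones. Per library that was 17, 26, 2 and 9 counts after TAC against 1, 3, 0 and 2 counts unstressed. In PKCδ-ablated hearts it was 6, 13 and 16 counts after TAC against 2, 0 and 0 unstressed. The groups overlapped in wild-type hearts and did not in PKCδ hearts. In combined hearts 4 TAC libraries had 1, 20, 0 and 2 counts, against 4, 0, 0 and 2 unstressed. In PKCε-knockout hearts the counts were 0, 0, 0 and 1 after TAC and 0, 0 and 0 unstressed, under both conditions below a floor of 3 counts per library (0.166 to 0.301 CPM over all libraries), and no fold is given. Combined TAC replicate 2, the library that goes against its label, held 20 of the 23 counts of its group. The ratio of summed TAC to unstressed CPM was 7.76 in wild type (exact 95% interval 3.34 to 22.1) and 14.3 in PKCδ hearts (3.67 to 123). Without wild-type TAC replicate 2, which held 26 of the 54 counts, the wild-type ratio was 5.44 (2.21 to 16.1). These intervals cover counting error only and are not read as a test. Without combined TAC replicate 2 the summed level in combined hearts was 0.0627 CPM after TAC and 0.11 CPM unstressed, the other way round from 0.377 and 0.11 CPM with it. No test of Sln is read as support, since the filter kept it through the groups in which it was high. Its call in wild-type hearts, counted above, was lost with any of 5 libraries left out (unstressed replicates 1, 3 and 4, TAC replicates 1 and 2), with adjusted p 0.0585 to 0.1 by edgeR.

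Myl4, the atrial myosin light chain, had the pattern most like Sln among the 10246 genes whose log2 CPM averaged 2 or more (Pearson r = 0.894 of log2 CPM over 29 libraries of 8 groups, given as a description). The next were Fam96a (0.708), Flt4 (0.694), Cd3eap (0.687) and Asap2 (0.684). Myl4 stood at 2.53, 8.90, 3.87 and 2.11 CPM in combined, 3.37, 3.05, 2.001 and 2.39 in PKCε, 5.90, 14.9 and 11.1 in PKCδ and 11.5, 12.9, 4.14 and 8.36 in wild-type hearts after TAC, where combined TAC replicate 2 was again the highest of its group. It was called higher after TAC in PKCδ (1.80 ± 0.43, adjusted p = 0.00308 by edgeR) and wild-type hearts (1.59 ± 0.37, 0.00174). The atrial list without Nppa (4 of 4 measured, Bmp10 at 0 to 2 counts in wild-type libraries) summed to 10.6 to 18.5 CPM in combined, 9.69 to 12.95 in PKCε, 13.1 to 23.1 in PKCδ and 11.7 to 20.7 in wild-type hearts after TAC, against 10.1 to 16.3 CPM in all unstressed hearts. With Nppa, the natriuretic peptide gene that ventricles also express under load, it summed to 484 to 7166 CPM after TAC and 63.9 to 169.7 CPM unstressed. The part of atrial tissue in the Sln result was not tested.

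**Figure D2:**
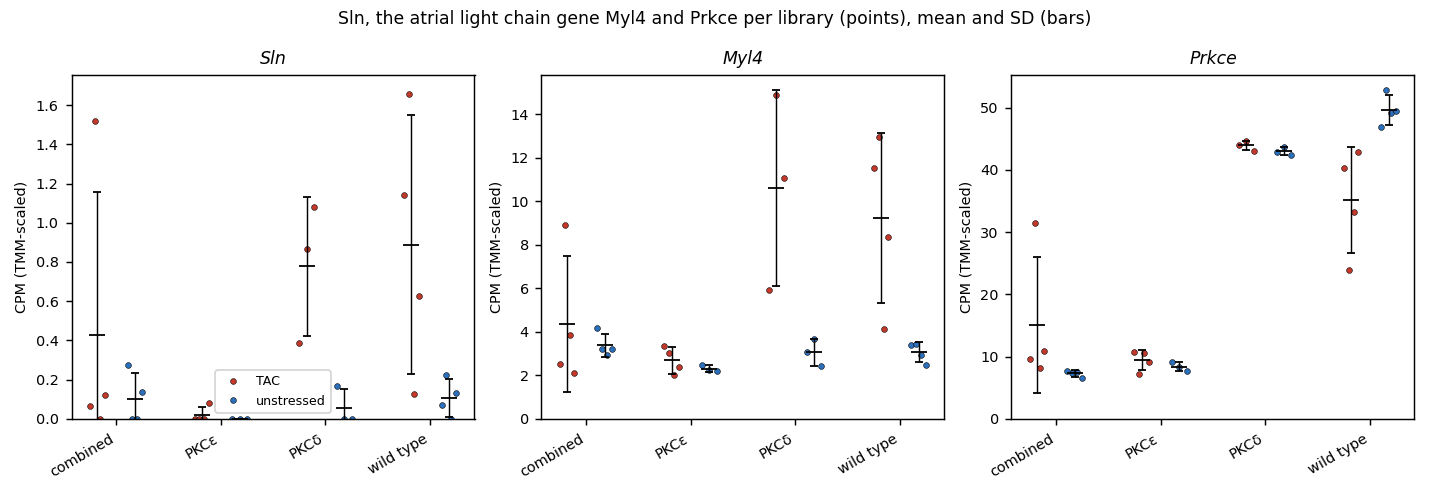
CPM (TMM-scaled) of Sln, Myl4 and Prkce per library, TAC in red left of unstressed in blue, for the 4 genotypes. Points are libraries, bars are the mean and SD. The library labelled combined ablation, TAC, replicate 2 stands above its group in all 3 panels (Sln 1.52, Myl4 8.90 and Prkce 31.5 CPM).

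Ryr2, the release channel, was lower after TAC in all 4 genotypes, and no TAC library reached the lowest unstressed one of its genotype. In combined-ablation hearts Ryr2 stood at 3595, 3326, 2667 and 3259 CPM after TAC, against 4993, 4611, 4995 and 4658 CPM unstressed. In PKCε-knockout hearts Ryr2 stood at 2673, 3472, 3334 and 3142 CPM after TAC, against 4677, 4546 and 4341 CPM unstressed. The gap between the groups was wider than either group's range in the combined hearts, and the same held in PKCε hearts. In PKCδ-ablated hearts Ryr2 stood at 3638, 3517 and 3369 CPM after TAC, against 5092, 5093 and 5529.9 CPM unstressed. In wild-type hearts Ryr2 stood at 3051, 2643, 3086 and 3296 CPM after TAC, against 4631, 4781, 4924 and 4743 CPM unstressed. Both pairs were apart. The log2 fold changes were -0.58 ± 0.08 in combined, -0.52 ± 0.09 in PKCε, -0.58 ± 0.09 in PKCδ and -0.66 ± 0.08 in wild-type hearts (adjusted p = 1.03e-06, 5.42e-05, 4.23e-05 and 4.83e-07 by edgeR), and each call held with any single library left out.

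Trdn, the triadin gene, was called lower after TAC in PKCε-knockout and wild-type hearts. In PKCε-knockout hearts Trdn stood at 61.0, 73.8, 80.6 and 104 CPM after TAC, against 131, 107 and 126 CPM unstressed. In wild-type hearts Trdn stood at 50.7, 59.3, 63.5 and 67.7 CPM after TAC, against 97.3, 71.6, 117 and 109.7 CPM unstressed. Neither pair overlapped. The log2 fold changes were -0.61 ± 0.19 (adjusted p = 0.0175 by edgeR) and -0.71 ± 0.18 (0.00297), and the PKCε call was lost without unstressed replicate 1 or 3 or TAC replicate 1 (adjusted p 0.0559 to 0.0757). In PKCδ-ablated hearts Trdn stood at 64.5 to 79.0 CPM after TAC and 94.3 to 118 CPM unstressed, with a change of -0.54 ± 0.20 and an adjusted p of 0.0501 that missed the threshold. The PKCδ groups did not overlap. Their change was called with the sex label as a term (-0.65, 0.0425), with only these groups fitted (-0.52, 0.00024) and by DESeq2 (-0.52, 0.0264). With any single library left out it was not called (0.0524 to 0.181). In combined hearts Trdn stood at 65.0 to 118 CPM after TAC and 89.6 to 105 CPM unstressed, a change of -0.19 ± 0.17 (0.385). Without combined TAC replicate 2, the library at 118 CPM, the combined change was -0.38 (0.0714).

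Hrc was called lower after TAC in combined, PKCε-knockout and wild-type hearts. In combined-ablation hearts Hrc stood at 977, 1483, 1222 and 1049.8 CPM after TAC, against 1567, 1823, 1799 and 1857 CPM unstressed. In PKCε-knockout hearts Hrc stood at 1198, 1617, 1375 and 1937 CPM after TAC, against 2033, 1923 and 2139.7 CPM unstressed. The combined groups were apart, and in PKCε hearts the highest TAC library passed the lowest unstressed one. In wild-type hearts Hrc stood at 1427, 1505, 1247 and 1499 CPM after TAC, against 1729.6, 1721, 1815 and 1749 CPM unstressed. The wild-type groups did not overlap. The log2 fold changes were -0.57 ± 0.11 in combined (adjusted p = 0.000116 by edgeR), -0.41 ± 0.12 in PKCε (0.0102) and -0.30 ± 0.11 in wild-type hearts (0.0307). In PKCδ-ablated hearts the change was -0.32 ± 0.13 (0.0614), with 1519.8 to 1609.8 CPM after TAC against 1900.5 to 2029.8 CPM unstressed. The PKCδ change was called with only these groups fitted (-0.30, 0.000516) and with the replicate block (-0.32, 0.0494). With any single library left out it was not called (0.0909 to 0.167). The wild-type call was lost without unstressed replicate 1, 3 or 4 or TAC replicate 1 or 3 (adjusted p 0.0516 to 0.11). The PKCε call was lost without unstressed replicate 3 or TAC replicate 1 (0.0503 and 0.0506). It was also lost with only the PKCε groups fitted (-0.41, 0.0589).

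Casq2, the cardiac calsequestrin, was in combined hearts called higher after TAC, at 1168, 864, 676 and 881 CPM against 711, 710.3, 643 and 702 CPM unstressed. Replicate 1 was the highest and replicate 3 lay within the unstressed range. The log2 fold change was 0.37 ± 0.11 (adjusted p = 0.00707 by edgeR), but it was 0.22 without TAC replicate 1 (adjusted p = 0.0712) and -0.03 among libraries labelled male, of which this group has 1. In PKCδ-ablated hearts Casq2 stood at 744, 761 and 766 CPM after TAC, against 817, 875 and 980.0 CPM unstressed. These groups did not overlap, and the change of -0.23 ± 0.13 (adjusted p = 0.179 by edgeR) was called lower when only these groups were fitted (-0.22, 0.0159) and with the sex label as a term (-0.38, 0.0381). In PKCε-knockout and wild-type hearts the changes were 0.12 ± 0.12 and 0.08 ± 0.11, not called, with groups that overlapped. Unstressed, every PKCδ library lay above every wild-type one (616 to 747 CPM), at 0.39 ± 0.12 (adjusted p = 0.0531 by edgeR). This difference was called by DESeq2 (0.38, 0.0385), with the sex label as a term (0.39, 0.0364) and with only these groups fitted (0.38, 0.00666). With single libraries left out its adjusted p ranged from 0.042 to 0.261. After TAC the PKCδ and wild-type groups overlapped (0.07 ± 0.12, 0.952).

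Jph2, the junctophilin gene, was higher after TAC in PKCδ-ablated hearts, at 936, 948 and 979 CPM against 699.5, 719.9 and 673 CPM unstressed. The groups did not overlap, and the log2 fold change was 0.45 ± 0.07 (adjusted p = 5.51e-05 by edgeR), a call that held with any single library left out. In combined hearts Jph2 stood at 797, 777, 821 and 916 CPM after TAC, against 703, 741, 703 and 775 CPM unstressed. These groups were narrowly apart, with a change of 0.18 ± 0.06 (0.0239) that was lost without unstressed replicate 1 or 3 or TAC replicate 4 (0.056 to 0.118). In PKCε-knockout and wild-type hearts the changes were 0.13 ± 0.07 and 0.13 ± 0.06 and were not called. By edgeR the PKCδ change was not shown to differ from the wild-type one (difference 0.32 ± 0.10, adjusted p = 0.102). DESeq2 called this difference (0.34, adjusted p = 0.0274). In unstressed hearts every PKCδ library lay below every wild-type one (762 to 885 CPM), at -0.20 ± 0.07. The adjusted p there was 0.0886 by edgeR and 0.0345 by DESeq2. After TAC the PKCδ and wild-type groups overlapped (0.12 ± 0.07, adjusted p = 0.883 by edgeR).

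Slc8a1, the exchanger gene, was called lower after TAC in PKCε-knockout and PKCδ-ablated hearts. In PKCε-knockout hearts Slc8a1 stood at 418, 400.2, 502 and 487 CPM after TAC, against 583, 584 and 498 CPM unstressed. In PKCδ-ablated hearts Slc8a1 stood at 362, 369.8 and 388 CPM after TAC, against 519.7, 478 and 536 CPM unstressed. The PKCδ groups did not overlap, and the PKCε groups did. The log2 fold changes were -0.30 ± 0.11 (adjusted p = 0.036 by edgeR) and -0.45 ± 0.11 (0.00392), and the PKCε call was lost without unstressed replicate 1 or 2 or TAC replicate 1 or 2 (0.102 to 0.136). In combined-ablation hearts Slc8a1 stood at 646, 444, 397 and 492 CPM after TAC, against 442, 428, 390.5 and 438 CPM unstressed. In wild-type hearts Slc8a1 stood at 359, 335, 348 and 394 CPM after TAC, against 398, 420.0, 457 and 424 CPM unstressed. In combined hearts replicate 1 was the highest, and in wild-type hearts the TAC libraries all lay lower. Neither change was called, at 0.22 ± 0.10 (0.0707) and -0.24 ± 0.10 (0.0568). Without combined TAC replicate 2 the combined change was 0.27 and was called higher (0.0384). With single libraries left out the combined change ranged from 0.07 to 0.31. The wild-type change was called lower with the sex label as a term (-0.30, 0.0137) and with only these groups fitted (-0.25, 0.0124). Of single libraries left out, TAC replicate 4 alone brought a wild-type call (-0.29, 0.0362).

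**Figure D3:**
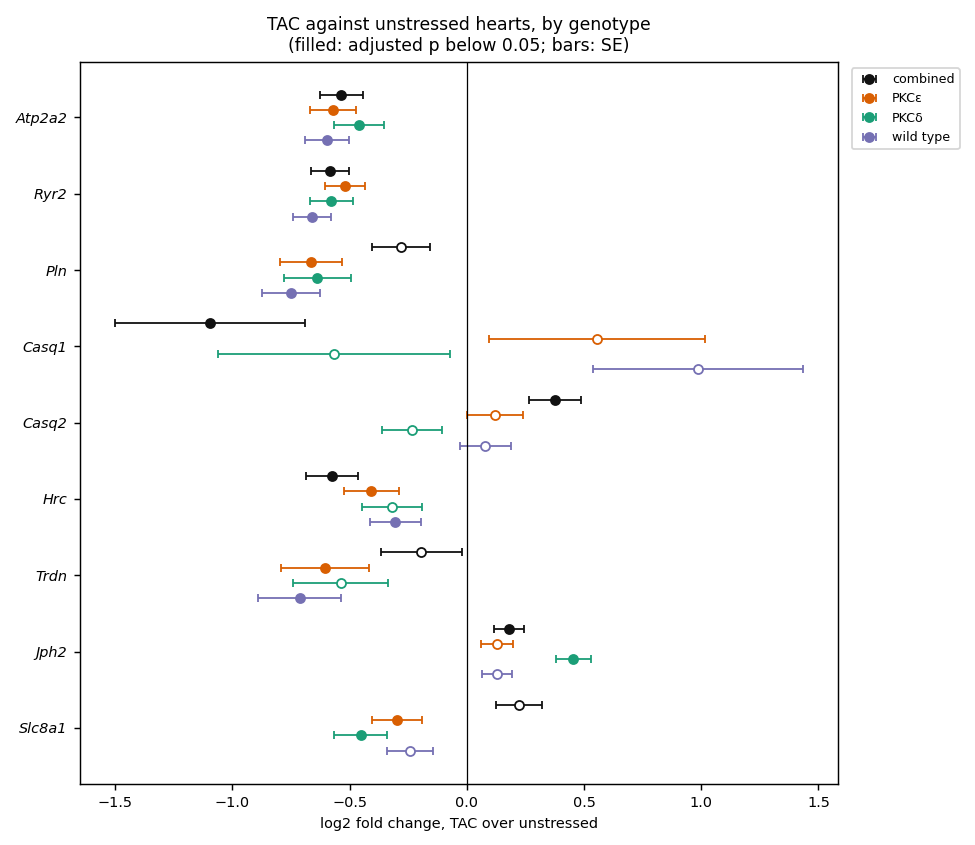
Log2 fold change of TAC over unstressed hearts for 9 of the genes (Sln, with counts near 0, is not drawn), in combined, PKCε, PKCδ and wild-type hearts. Points are estimates of edgeR, bars the SE, and filled points have an adjusted p below 0.05. Atp2a2 and Ryr2 lie between -0.66 and -0.46 in all 4 genotypes, and Casq1 lies at -1.10 in combined and 0.99 in wild-type hearts.

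Set against wild type, the genes called by genotype were Casq1 and Slc8a1, and the TAC effect differed for these and for Pln. Most of the counts lie near the share of all genes and say nothing particular about the 10. In unstressed hearts 1 of the 10 was called in combined hearts (beside 29.2% of all genes), 1 in PKCε-knockout (3%) and 0 in PKCδ-ablated hearts (5.37%). After TAC 1 was called in combined hearts (6.76%), 0 in PKCε-knockout (0.0436%) and 0 in PKCδ-ablated hearts, where edgeR called 0 of the 13765 genes and DESeq2 1, with 789 at an unadjusted p below 0.05. The TAC effect differed from that of wild type for 3 of the 10 genes in combined hearts (beside 25.1% of all genes), 0 in PKCε-knockout (0.0363%) and 0 in PKCδ-ablated hearts (1.27%). In the comparisons in which edgeR called 0, an unadjusted p below 0.05 was found for 4 of the 10 in unstressed PKCδ hearts, 2 in PKCδ and 3 in PKCε hearts after TAC, and 2 for the TAC effect in PKCδ and 0 in PKCε hearts, and DESeq2 called 2, 0, 0, 1 and 0. All these comparisons share the wild-type libraries.

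Casq1, the calsequestrin of fast skeletal muscle, was higher in unstressed combined than in wild-type hearts. It stood at 95.9, 37.0, 63.4 and 34.1 CPM in combined, 21.7, 23.7 and 18.2 in PKCε-knockout and 29.3, 24.3 and 26.3 in PKCδ-ablated hearts, against 10.4, 13.4, 13.5 and 9.29 CPM in wild-type hearts. Every library of each ablation lay above every wild-type library. The edgeR test called the combined difference alone, at a log2 fold change of 2.32 ± 0.44 (adjusted p = 0.000528), and it stayed between 1.94 and 2.50 and called with any single library left out. The PKCε difference was 0.87 ± 0.49 (0.396) and the PKCδ difference 1.20 ± 0.48 (0.15), and both were called when only the groups compared were fitted (adjusted p = 0.00375 and 4.03e-05). After TAC, Casq1 stood at 18.1, 17.6, 45.8 and 25.5 CPM in combined, 21.8, 64.9, 17.6 and 19.0 in PKCε and 18.6, 21.4 and 13.9 in PKCδ hearts, against 22.5, 17.98, 36.9 and 14.3 CPM in wild-type hearts. These 4 groups overlapped, and no difference was called (0.23 ± 0.42, 0.44 ± 0.41 and -0.35 ± 0.46). A single library set the sign of the first and second of these, which were -0.16 without combined TAC replicate 3 and -0.23 without PKCε TAC replicate 2.

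The TAC effect on Casq1 was thus -1.10 ± 0.41 in combined hearts (adjusted p = 0.0331 by edgeR) and 0.99 ± 0.45 in wild-type hearts (0.0914). The wild-type effect was called with the sex label as a term (1.14, 0.0431), with only these groups fitted (0.98, 0.0482) and by DESeq2 (0.98, 0.048). The combined effect was lost without both libraries of doubtful Prkce (-0.95, 0.0959). The difference between these effects was -2.08 ± 0.60 (adjusted p = 0.0151) and was called with any single library left out. Among libraries labelled male, where the combined TAC group has 1 library, the difference was -1.50. The combined effect by itself was lost without any of 5 libraries (unstressed replicates 1 and 3, TAC replicates 1, 2 and 4; adjusted p 0.0644 to 0.172), was -0.61 with the sex label as a term and -0.33 among libraries labelled male, where the TAC group is replicate 3 alone, at 45.8 CPM the highest of its group. The skeletal muscle list without Myh2 (8 of 8 measured) summed to 4.40 to 5.96 CPM in combined and 4.15 to 5.93 CPM in wild-type unstressed hearts, and Myh2 was at 0 to 0.167 and 0.1005 to 0.301 CPM, ranges that overlap. In unstressed PKCε-knockout hearts the list without Myh2 summed to 5.55 to 6.30 CPM and Myh2 was at 14.5 to 28.8 CPM, above every wild-type library. In unstressed PKCδ-ablated hearts the list without Myh2 summed to 5.98 to 7.996 CPM, above every wild-type library, and Myh2 was at 0.0837 to 0.151 CPM. The part of skeletal muscle in the Casq1 values was not tested. Of the exonic bases of Casq1, 8% are shared with an antisense gene (Gm17224) and cannot be told apart from it without strand.

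Slc8a1 was the other gene called between genotypes. In unstressed hearts it stood at 583, 584 and 498 CPM in PKCε-knockout hearts, against 398, 420.0, 457 and 424 CPM in wild-type hearts. The groups did not overlap, and the log2 fold change was 0.39 ± 0.11 (adjusted p = 0.0418 by edgeR). The call was lost without PKCε replicate 1 or 2 or wild-type replicate 1, 2 or 4 (0.0651 to 0.198). After TAC it stood at 646, 444, 397 and 492 CPM in combined hearts, against 359, 335, 348 and 394 CPM in wild-type hearts. All 4 combined libraries lay above the wild-type ones, and the difference was 0.46 ± 0.10 (adjusted p = 0.0083). Without combined TAC replicate 1, at 646 CPM, it was 0.31 (adjusted p = 0.0639), with the sex label as a term 0.35 (0.0879), and among libraries labelled male, where the combined TAC group has 1 library, 0.19 (0.814). The sex label itself is contradicted in 23 libraries. The TAC effect in combined hearts differed from that in wild-type hearts by 0.46 ± 0.14 (adjusted p = 0.0157), which held with any single library left out and was 0.35 (0.0744) with the sex label as a term.

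The TAC effect on Pln also differed, by 0.47 ± 0.17 between combined and wild-type hearts (adjusted p = 0.0492 by edgeR), but it was 0.31 (0.146) without combined TAC replicate 2 and 0.36 (0.0893) without both libraries of doubtful Prkce, and 10 of the 16 single libraries left out ended the call (0.0735 to 0.146). In unstressed hearts Pln was -0.31 ± 0.12 in combined against wild type (adjusted p = 0.0568), at 1297 to 1599.5 against 1566 to 1911 CPM, and groups overlapped. Atp2a2 was -0.16 ± 0.09 (0.205) in the same comparison, at 9915 to 11237 CPM in combined and 11484 to 12699 CPM in wild-type hearts, groups that did not overlap. Ryr2, with a difference of 0.01 ± 0.08, overlapped. Without combined TAC replicate 2, Hrc was called lower in combined than in wild-type hearts after TAC (-0.39, adjusted p = 0.02 by edgeR), where with it the difference was -0.26 ± 0.11 (0.138).

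**Figure D4:**
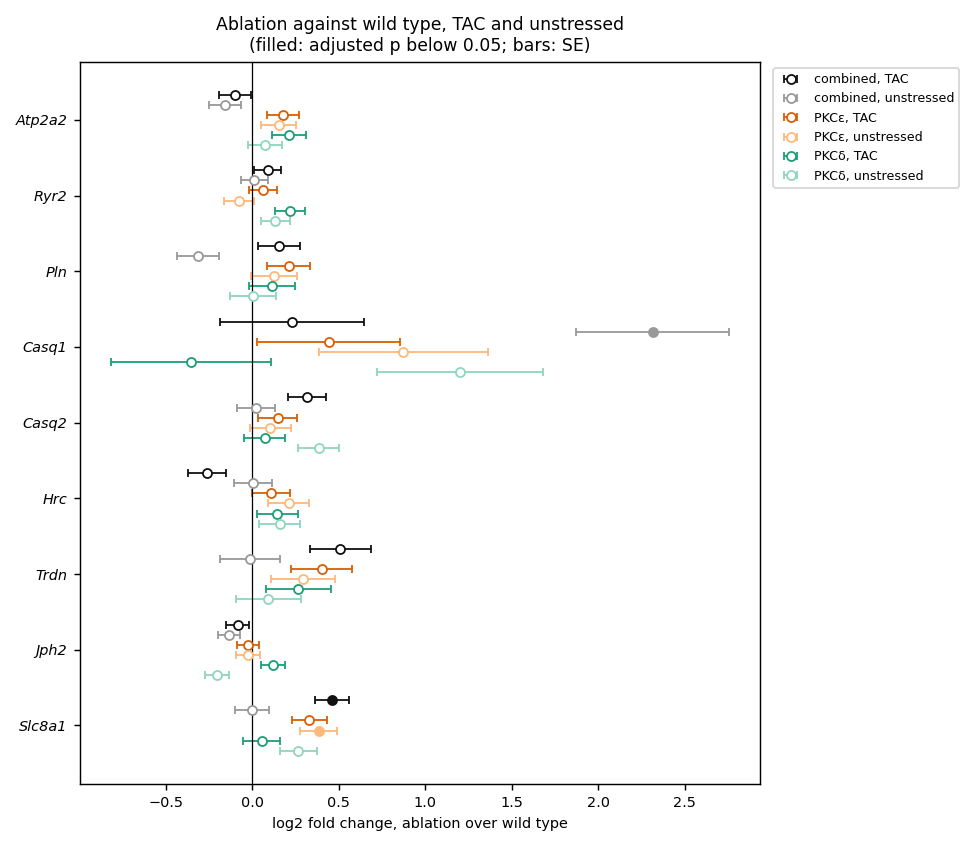
Log2 fold change of each ablation over wild type, after TAC and unstressed, for 9 of the genes (Sln is not drawn). Points are estimates of edgeR, bars the SE, and filled points have an adjusted p below 0.05. The filled points are Casq1 in unstressed combined hearts (2.32), Slc8a1 in combined hearts after TAC (0.46) and Slc8a1 in unstressed PKCε-knockout hearts (0.39).

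Per kilobase of exon, on the RPKM scale, Atp2a2 was the highest of the 10 in every group. In wild-type hearts it had 1313 ± 124 RPKM after TAC and 1984 ± 97.3 RPKM unstressed (SD, n = 4 each). In unstressed wild-type hearts Hrc (683 ± 16.5) and Pln (652 ± 58.2) followed and differed by less than the SD of Pln, then Casq2 (249.1 ± 21.4), Jph2 (189 ± 13.5), Ryr2 (166 ± 4.21), Slc8a1 (22.6 ± 1.29), Trdn (10.6 ± 2.14), Casq1 (5.97 ± 1.09) and Sln (0.0818 ± 0.0725). Casq1 had 29.5 ± 14.7 RPKM in unstressed combined hearts, where Slc8a1 had 22.6 ± 1.24 RPKM, a difference within the SD of Casq1. Casq2 in those hearts had 253 ± 11.9 RPKM. The place of Pln is uncertain, since 64.7% of its exonic bases are shared with genes on the opposite strand. The exon lengths may also differ from those of the annotation counted against, which is not given.

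**Figure D5:**
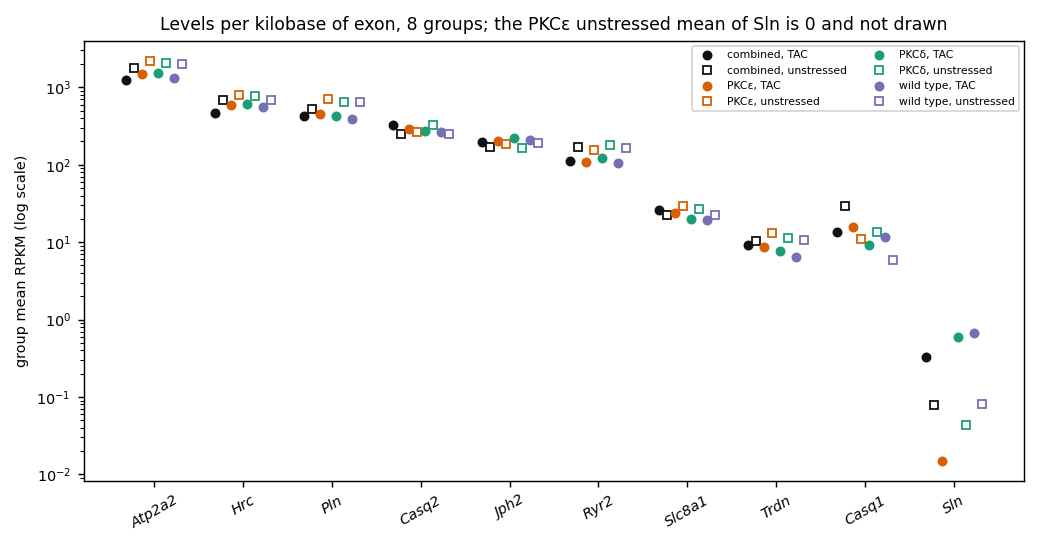
Group mean level per kilobase of exon (RPKM, log scale) of the 10 genes in 8 groups, filled circles for TAC and open squares for unstressed hearts, coloured by genotype. Atp2a2 stands highest in each group, and Casq1 lies at 29.5 RPKM in unstressed combined hearts, against 5.97 RPKM in wild type.

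Over the 29 libraries the 5 genes whose log2 CPM was most like that of Atp2a2 were Fyco1 (Pearson r = 0.96), Slc16a10 (0.957), Acsl1 (0.955), Asb15 (0.95) and Hadha (0.944), among 10246 genes. Acsl1 and Hadha encode enzymes of fatty acid use. Within the 10, Hrc (0.916), Pln (0.887), Ryr2 (0.862) and Trdn (0.757) followed Atp2a2, Slc8a1 did so less (0.38), and Casq2 (-0.132), Casq1 (-0.14), Sln (-0.359) and Jph2 (-0.477) did not. These values are descriptions, since the libraries share the TAC difference.

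Among 45 other genes of calcium handling, all measured, 17 rose and 11 fell after TAC in combined hearts, 6 rose and 16 fell in PKCε-knockout, 5 rose and 9 fell in PKCδ-ablated and 8 rose and 15 fell in wild-type hearts, beside 22% higher and 21.8% lower, 14.5% and 14.3%, 12.9% and 14%, and 17.8% and 17.9% of all genes. The medians were 0.17, -0.03, -0.01 and -0.10 on the log2 scale. Of sarcolemmal genes, Cacnb2, a subunit of the L-type calcium channel, fell in all 4 genotypes (-0.55 combined, -0.46 PKCε, -0.60 PKCδ, -0.48 wild type), as did the anchor Ank2 (-0.43, -0.35, -0.46 and -0.39). Of the signalling genes that act on this cycle, the phosphodiesterase Pde4d (-0.59, -0.72, -0.91 and -0.75) and the kinase Camk2a (-1.28, -0.68, -0.54 and -0.53) fell in all 4, and so did Prkaca, the catalytic subunit of protein kinase A, the kinase anchor Akap7 and the phosphodiesterase Pde3a. Camk2a fell by more in combined than in wild-type hearts (difference -0.76 ± 0.15, adjusted p = 0.000831 by edgeR). Of the store's own genes, Jsrp1 rose in PKCε (1.98 ± 0.52), PKCδ (1.48 ± 0.48) and wild-type hearts (2.44 ± 0.46), and the counter-ion channel Tmem38b rose in the same 3 genotypes (1.35, 1.08 and 0.84), while its paralog Tmem38a fell in combined, PKCε and wild-type hearts (-0.24, -0.38 and -0.32).

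In unstressed hearts 4 of the 45 genes were higher and 15 lower in combined than in wild-type hearts, 1 higher and 0 lower in PKCε-knockout, and 2 higher and 6 lower in PKCδ-ablated hearts, beside 29.2%, 3% and 5.37% of all genes in either direction. The lower genes included Cacna2d1, a calcium channel subunit (-0.68 ± 0.09, adjusted p = 2.77e-06 by edgeR), Ppp1r3a, a phosphatase targeting subunit (-0.94 ± 0.14, 1.78e-05), and the junctophilin Jph1 (-0.69 ± 0.11, 2.64e-05) in combined hearts, and Jph1 (-0.67 ± 0.12, 0.000925) and Ppp1r3a (-0.70 ± 0.15, 0.00778) in PKCδ-ablated hearts. Jsrp1, which like Casq1 is best known from skeletal muscle, was higher in combined hearts (1.82 ± 0.49, 0.00624), while Ryr1 (0.65 ± 0.33, 0.14) and Atp2a1 (0.29 ± 0.32, 0.537), the skeletal release channel and pump, were not called. Pde3a was the gene called in PKCε-knockout hearts (0.52 ± 0.10, 0.002). After TAC, 4 were higher and 2 lower in combined than in wild-type hearts (beside 6.76% of all genes), among them the kinase anchor Akap6 (0.37 ± 0.08, 0.00709) and the membrane-bending Bin1 (-0.48 ± 0.12, 0.0155), and in the PKCε and PKCδ groups edgeR called 0 of the 45, DESeq2 called 0 as well, and 9 and 5 had an unadjusted p below 0.05. The TAC effect differed from that of wild type for 13 genes upward and 5 downward in combined hearts (beside 25.1% of all genes), with Ppp1r3a at 1.52 ± 0.20 and Cacna2d1 at 0.92 ± 0.12, and for 2 upward and 1 downward in PKCδ-ablated hearts (1.27%), with Ppp1r3a at 1.07 ± 0.22 and Jph1 at 0.80 ± 0.16.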

How the data were processed

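Poly(A) RNA of 29 mouse heart libraries, 8 groups of 3 or 4, was read as raw counts per gene symbol, which the authors made with TopHat2 2.0.10, Bowtie2, HTSeq and mm10 (source: per the submitters' processing notes, where TopHat, DESeq and edgeR are named too). The gene annotation they counted against is not given in the sources used here. Reads in genes numbered 10523709 to 17314739 per library. Rows of reads not counted in a gene were left out. Of all reads, counted in genes or in these rows, those on more than 1 gene made up 0.776% to 0.942%. Reads aligned to more than 1 place made up 8.01% to 14.2%. Genes with near-identical copies are therefore undercounted, and without strand overlapping genes cannot be told apart.

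The 10 genes, the other lists and the tests were chosen with earlier results of these data known. Groups came from the labels. Nothing says that libraries came from separate animals beyond 1 title each, so p-values cover only the spread among libraries, which may be technical. edgeR 4.0.16 (limma 3.58.1, R 4.3.3) was fitted to all 29 libraries with TMM, a low-count filter by group (13765 genes kept), a mean per group and 21 residual degrees of freedom, with Benjamini-Hochberg adjustment within each of 13 comparisons. The sex label was not a term, because sex-linked transcripts go against it in 23 libraries, and it was an alternative. Of those labelled male, 19 had Xist and 11 lacked Y-linked transcripts. The cut for Xist was 5% of its median over libraries almost without Y-linked transcripts. The cut for the Y-linked sum was 5% of its median over libraries almost without Xist. Other alternatives were RLE, no filter, libraries labelled male, a replicate block, only the groups compared, DESeq2 1.42.0, leaving out each library, and leaving out both TAC libraries of doubtful Prkce. The script was tested on simulated data.

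Named genes are the 10, other listed calcium genes called in at least 3 of the 4 TAC comparisons in the same direction or among the 6 smallest adjusted p of a genotype comparison, of which the text names a subset, and for Atp2a2 and Sln the 5 genes with the highest Pearson r. Ryr1, Atp2a1 and Jsrp1 in combined hearts were named after their values were seen. RPKM is CPM per kilobase of union exon in GENCODE vM21. Plots used Python 3.11.15 and matplotlib 3.10.9.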

Additional observations from a re-analysis of the deposited data

Results flagged for a closer look

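In 6 of 55 groups of 4 libraries 1 library stood far from the other 3 (chance alone gives about 1 in 20). They were Atp2a2 in combined unstressed replicate 1 (9915 CPM) and wild-type TAC replicate 4 (9114 CPM), Sln in PKCε TAC replicate 4 (0.0797 CPM, 1 count) and combined TAC replicate 2 (1.52 CPM), Casq1 in PKCε TAC replicate 2 (64.9 CPM) and Casq2 in combined unstressed replicate 3 (643 CPM). The library of Sln in combined TAC hearts is the 1 whose Prkce goes against its label.

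The TAC effect differed between combined and wild-type hearts, by edgeR's test of the difference itself, for Pln (0.47 on the log2 scale), Casq1 (-2.08) and Slc8a1 (0.46). The Pln difference rests in part on combined TAC replicate 2, without which it was 0.31 (adjusted p = 0.146).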

How the results depend on the processing

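Of 2169 values of single genes under the alternatives, 2043 kept their direction and side of the threshold, 67 lost a call, 58 gained a call and 1 reversed. That was Casq2 in combined TAC against unstressed hearts, at -0.0325 among libraries labelled male, where the group has 1 library. RLE changed none of 130. Counts of called genes that moved by over 1.5 times were as follows. With only the groups compared fitted, TAC called 9 in PKCδ (5 otherwise), and against wild type 2 in unstressed PKCε (1 otherwise), 3 in unstressed PKCδ (0), 3 in unstressed combined (1) and 0 in combined TAC hearts (1). With the sex label as a term, counts were 3 for TAC in combined (6), 1 in unstressed PKCδ (0), 0 in combined TAC (1) and 1 for the difference of the combined TAC effect (3). Among libraries labelled male they were 2 in unstressed PKCδ (0), 2 in unstressed combined (1), 2 in PKCε TAC (0), 0 in combined TAC (1) and 0 for the difference of the combined TAC effect (3). DESeq2 called 2 in unstressed PKCδ (0), 2 in unstressed combined (1), 2 in combined TAC (1) and 1 for the difference of the PKCδ TAC effect (0). Without both libraries of doubtful Prkce, 3 were called in combined TAC (1). The counts include Sln where it was called, as here and in PKCε TAC among libraries labelled male, and its calls support nothing.

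With each library left out in turn, TAC calls ranged from 4 to 7 in combined, 3 to 6 in PKCε, 5 to 6 in PKCδ and 4 to 7 in wild-type hearts. Against wild type they ranged from 1 to 2, 0 to 1 and 0 to 1 in unstressed combined, PKCε and PKCδ hearts, and from 0 to 3, 0 to 0 and 0 to 0 after TAC. Differences of the TAC effect ranged from 2 to 4, 0 to 0 and 0 to 0. The causes of these changes were not tested, but fewer libraries enter some of the fits.

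The replicate numbers were not taken to pair the samples, although low correlation cannot show that they share no batch. Over 94 pairs of libraries with the same number the correlation of deviations from group means was -0.234 to 0.181, and 8 pairs were over 0.1. With the replicate block, Pln's difference of the combined TAC effect was 0.4721 (adjusted p = 0.0556 by edgeR). Sln (0.0315) and Hrc (0.0494) were called in PKCδ TAC against unstressed hearts, of which the Sln call supports nothing. No other call changed. Depth limits Sln, at 0 to 4 counts in unstressed libraries.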
